A study of Mus musculus with 19 samples.

Results

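The genes described here are the axon guidance ligands and receptors of the semaphorin, plexin, neuropilin, ephrin, Eph, netrin, Robo and Slit families. They were taken from the count table by gene symbol, and kept where the mean level over all 19 libraries was at least 1 CPM (the count as a part per 1e6 of the library total). Of 64 genes with such a symbol, 63 were kept, among 20938 genes in the table. Only Efna4 fell outside, at 0.12 CPM, while the lowest genes kept were Epha1 at 2.39 CPM, Epha2 at 2.56 CPM and Efna1 at 2.95 CPM. The 63 genes comprised 20 semaphorins, 9 plexins, 2 neuropilins, 7 ephrins, 14 Eph receptors, 4 netrins, 4 Robo receptors and 3 Slits. All 63 passed the filter on low counts and entered every test.

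RNA came from the left prelimbic cortex of mice, an area of the medial prefrontal cortex, in 4 groups. The 6 Control libraries came from mice given saline by daily intraperitoneal injection over 2 weeks. The 4 SCZ libraries came from mice given MK-801, which blocks NMDA-type glutamate receptors and serves as a schizophrenia model, at 0.2 mg/kg on the same schedule. The 5 Control+c-MSST and 4 SCZ+c-MSST libraries came from mice treated likewise that also received c-MSST, in which ferumoxytol, an iron oxide nanoparticle, is placed once in the left prelimbic cortex and the awake mouse moves under a pulsed magnetic field. Tissue was taken on day 3 after surgery. Strain, sex, age and batch are not in the labels. Whether Control and SCZ mice were operated on is not stated either, so if they were not, c-MSST cannot be told apart from surgery and injection. The labels mention 4 mice per group and do not tie each library to its own mouse, so the p-values measure the spread between these libraries, which may be partly technical.

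Axon guidance molecules steer growing axons and, in the adult cortex, remain on neurons and glia, where they act on dendritic spines, synapses and vessels. Secreted class 3 semaphorins bind neuropilins, which signal through class A plexins, while most other semaphorins bind plexins directly. Ephrins are anchored to the membrane and bind Eph receptor tyrosine kinases, Slits bind Robo receptors, and netrins bind Dcc and Unc5 receptors.

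Total counts ran from 50140626 to 82416746 per library. Cortical excitatory neuron markers were present in every library, with a summed level over 6 genes of 1238 to 1962 CPM. Markers of neighbouring tissue varied far more. The 12 striatal neuron markers, all above 0 in every library, summed to 292 to 2566 CPM in Control, 387 to 2071 CPM in Control+c-MSST, 2102 to 2857 CPM in SCZ and 1347 to 3248 CPM in SCZ+c-MSST. Control replicates 2 and 3 stood apart from the rest: their 10 choroid plexus markers summed to 1836 and 191 CPM, against 10.6 to 32.1 CPM in the other 17 libraries, in some of which Ttr, Folr1, Kcne2, Sostdc1, Otx2 or Slc4a5 was at 0. These libraries also had the lowest summed striatal markers, at 345 and 292 CPM.

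Levels can be compared between genes per length, as the deposited FPKM values, which are fragment counts scaled to gene length and to library depth. Among the ligands, Sema7a, a membrane-anchored semaphorin, had the highest mean over the 19 libraries at 21.6 FPKM, and Efnb2, an ephrin-B, had 16.9 FPKM. Slit1 and Slit2 were at 13.9 and 12.3 FPKM, and Slit3 at 6.96 FPKM. The netrins were low throughout, from 0.606 FPKM for Ntn4 to 4.89 FPKM for Ntn1. The secreted semaphorin Sema3b was the lowest ligand at 0.275 FPKM, and Efna1 was the lowest ephrin at 0.784 FPKM.

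Receptors spanned a wider range. Ephb6, an Eph receptor whose kinase domain is catalytically inactive, had the highest mean of all 63 genes at 52.2 FPKM, and ran from 32.3 to 85.6 FPKM between libraries. Robo2 followed at 34.7 FPKM, Plxna4 at 28.6 FPKM and Epha4 at 27.0 FPKM. The ranges of these 3 overlapped between libraries (29.4 to 43.0, 23.1 to 43.2 and 22.8 to 40.7 FPKM), so their order is not separated beyond the spread. Nrp2 had 19.7 FPKM and Nrp1, the other co-receptor of class 3 semaphorins, 7.31 FPKM. At the lower end stood Epha1 at 0.229 FPKM, Epha2 at 0.254 FPKM and Robo4, which is known from endothelium, at 0.627 FPKM. The lowest plexin, Plxnb3, had 2.59 FPKM.

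**Figure D1:**
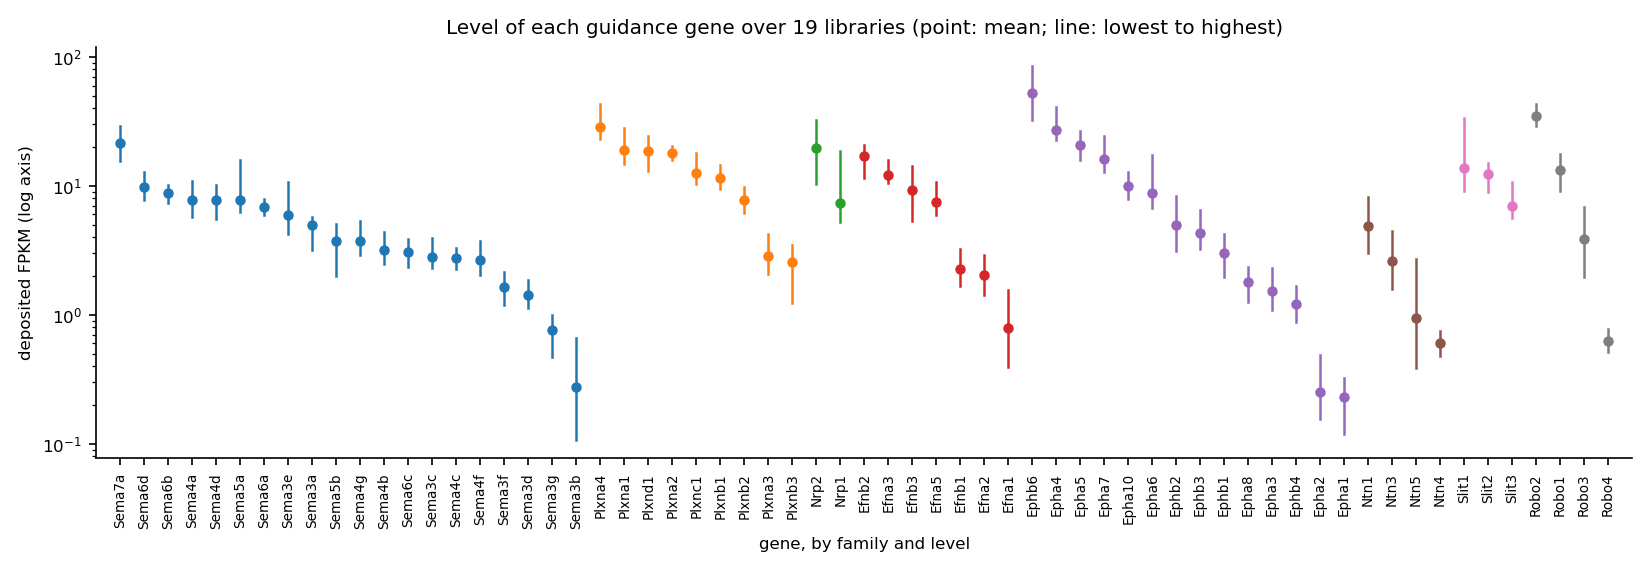
Deposited FPKM (vertical axis, logarithmic) of each of the 63 guidance genes, ordered by family and level and coloured by family. Points are means over 19 libraries and lines run from the lowest to the highest library; Ephb6 is highest at 52.2 FPKM and Epha1 lowest at 0.229 FPKM.

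The genes differed in how steady they were. The SD of log2 CPM over the 19 libraries had a median of 0.22 in the 63 genes, against 0.16 in the 14054 genes with a mean of at least 1 CPM. The 5 most variable were Ntn5 (SD 0.77 in log2 CPM), Sema3b (0.56), Nrp2 (0.50), Nrp1 (0.49) and Robo3 (0.49). Plxna2, a class A plexin, was the steadiest at 0.10. Differences between groups made up a median of 28.7% of the variance of the guidance genes and 24.1% of that of the comparison genes, with Epha10 at 60.3%, Sema4f at 57.5% and Ntn1 at 54.4% but Nrp2 at 6.68%.

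In the test across all 4 groups no guidance gene passed edgeR's quasi-likelihood test at an adjusted p under 0.05, where 0.0183% of the 16417 genes tested did. At an unadjusted p under 0.05 there were 20 of 63 guidance genes (31.7%) and 19.2% of all genes tested. The smallest adjusted p values were those of Epha10 (0.0822), an Eph receptor that lacks kinase activity, Sema4f (0.0956), a transmembrane semaphorin, Ntn5 (0.102), Ntn1 (0.109) and the ephrin Efnb3 (0.133). DESeq2's likelihood ratio test called 10 of the 63 (Efnb1, Efnb3, Epha8, Epha10, Ephb3, Ntn1, Ntn5, Plxna1, Sema4a and Sema4f), where it called 8.66% of all genes tested, and limma on log2(FPKM + 0.1) called none of the 63 and 0.802% of all. Without Control replicate 7, edgeR's adjusted p was 0.0470 for Sema4f and 0.0435 for Efnb3, where 167 of the 16392 genes tested passed. Leaving out Control+c-MSST replicate 1 gave an adjusted p of 0.0488 for Ntn1. Without Control replicates 2 and 3, none of the 63 passed in this test or in any of the 5 group contrasts.

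SCZ against Control addresses what MK-801 does without c-MSST. None of the 63 guidance genes passed, and 0% of all genes tested did. At an unadjusted p under 0.05 there were 15 guidance genes (23.8%), 10 lower and 5 higher in SCZ, against 13.5% of all genes. The fold change was below 0 in 40 of the 63, with a median log2 fold change of -0.06 against 0.00 over all genes tested. DESeq2 called 3 (Epha8, Ntn1 and Ntn5) where it called 1.84% of all genes tested, and limma on log2(FPKM + 0.1) called none of the 63 and 0.00668% of all.

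Ntn1, the netrin best known for guiding axons toward the midline, had 22.5, 28.7, 30.6 and 33.7 CPM in the 4 SCZ libraries. In Control its lowest, median and highest values were 13.9, 16.2 and 24.3 CPM. All SCZ libraries lay above the Control median, and the groups overlapped only through Control replicate 4, the highest Control library, and SCZ replicate 1, the lowest SCZ library. The log2 fold change was 0.71 (SE 0.20, adjusted p = 0.168). With the striatal marker score in the fit it was 0.37 (SE 0.17, adjusted p = 0.686).

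Epha8, an Eph receptor for ephrin-A ligands, had 15.2, 16.7, 18.9 and 19.7 CPM in SCZ. Control ran from 10.2 through a median of 12.5 to 14.7 CPM. In CPM the groups did not overlap, and every SCZ library was above every Control library. In FPKM they overlapped, with SCZ replicate 2 at 1.82 and Control replicate 4 at 1.84. The log2 fold change was 0.47 (SE 0.13, adjusted p = 0.164). It was 0.35 without Control replicates 2 and 3 (adjusted p = 0.276), and 0.35 with the striatal score in the fit (adjusted p = 0.658).

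Ephb2, a receptor of B-type ephrins that interacts with NMDA receptors at synapses, had 29.5, 30.5, 30.7 and 31.95 CPM in SCZ. In Control it had 32.3 CPM at the lowest, 38.0 CPM at the median and 60.0 CPM at the highest. In CPM SCZ was lower in every library and narrow, while Control was spread out, with its highest values in replicates 2 and 3. The nearest values of the 2 groups, 31.95 and 32.3 CPM, were under 1 CPM apart. In FPKM the groups overlapped, with SCZ replicate 1 at 4.23 and Control replicate 5 at 4.22. The fold on the log2 scale was -0.48 (SE 0.16, adjusted p = 0.223), -0.27 without Control replicates 2 and 3 (adjusted p = 0.415), and -0.12 with the striatal score in the fit (adjusted p = 0.853).

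Ntn5, a little-studied netrin whose gene overlaps Sec1 on the other strand, so that its count is uncertain, had 1.38, 1.57, 1.94 and 3.57 CPM in SCZ. In Control it had 2.62, 2.64, 2.87, 6.52, 7.56 and 8.98 CPM. The high Control values were replicates 7, 3 and 2, and SCZ overlapped the other 3. The log2 fold change was -1.31 (SE 0.38, adjusted p = 0.170), -0.83 without Control replicates 2 and 3 (adjusted p = 0.335) and -0.79 with the striatal score in the fit (adjusted p = 0.726).

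Epha10 had 56.1, 59.0, 60.6 and 66.3 CPM in SCZ and from 60.0 through 72.7 to 75.8 CPM in Control. Most SCZ libraries were low, but the groups overlapped. Its log2 fold change was -0.24 (SE 0.08, adjusted p = 0.216), and -0.14 with the striatal score in the fit (adjusted p = 0.746). Nrp1 was at 119.2 and 113.7 CPM in Control replicates 2 and 3, against 35.1 to 46.7 CPM in all other libraries. Beyond the values with the striatal score in the fit, the part of striatal tissue in these differences was not tested, and in bulk tissue fewer cells of a type and less RNA per cell cannot be told apart.

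**Figure D2:**
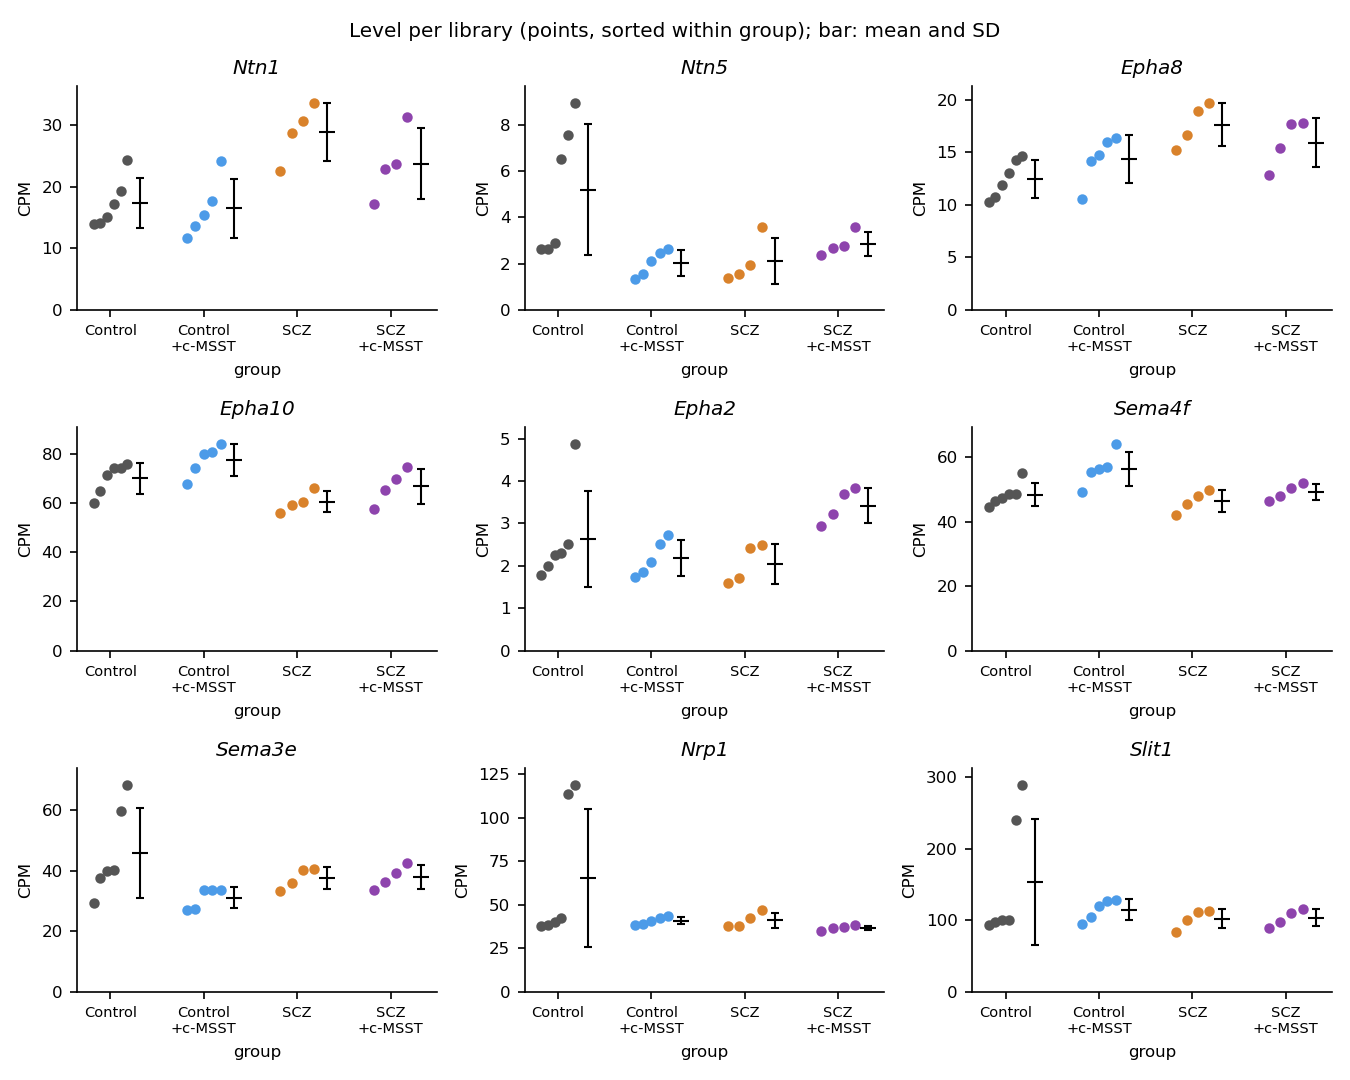
CPM of 9 guidance genes in each library (points, sorted within a group), with the mean and SD of each group as a bar beside the points. Epha8 is above every Control value in all 4 SCZ libraries, Epha2 above every SCZ value in all 4 SCZ+c-MSST libraries, and Nrp1 and Slit1 are high in Control replicates 2 and 3 only.

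Control+c-MSST against Control addresses what c-MSST does in saline mice. No guidance gene passed edgeR's test, where 54 of all genes tested (0.329%) did. At an unadjusted p under 0.05 there were 17 guidance genes (27.0%), 11 higher and 6 lower, against 16.6% of all genes tested. DESeq2 called 5 (Ntn5, Sema3e, Sema4a, Sema4f and Sema6b) where it called 3.46% of all genes tested, and limma on log2(FPKM + 0.1) called 2 (Sema4a and Sema6b) where it called 2.33%.

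Sema6b, a transmembrane semaphorin that signals through class A plexins, had 111.4, 112.0, 117.0, 117.7 and 128.6 CPM in Control+c-MSST. In Control it had 95.8 CPM at the lowest, 105.9 CPM at the median and 110.8 CPM at the highest. The groups did not overlap, though their nearest values were under 1 CPM apart. The fold on the log2 scale was 0.18 (SE 0.05, adjusted p = 0.0929).

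Sema4f had 49.3, 55.3, 56.4, 57.0 and 64.3 CPM with c-MSST and from 44.4 through 47.9 to 55.2 CPM in Control. The Control value that overlapped was that of replicate 7. The log2 fold change was 0.24 (SE 0.07, adjusted p = 0.0992), and without that library 0.29 (adjusted p = 0.0314). In that fit 3 guidance genes and 1.92% of all genes tested passed.

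Sema4a, a semaphorin also known from immune cells, had 61.2, 62.0, 67.9, 70.8 and 74.4 CPM with c-MSST. In Control it had 43.4 CPM at the lowest, 58.1 CPM at the median and 62.8 CPM at the highest. The 2 lowest Control values were replicates 2 and 3, and the groups overlapped at the other end. In FPKM the groups did not overlap, with 8.522 to 10.88 with c-MSST and 5.77 to 8.225 in Control. The log2 fold change of Sema4a was 0.33 (SE 0.10, adjusted p = 0.114), and 0.18 without Control replicates 2 and 3 (adjusted p = 0.217).

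Sema3e, a secreted semaphorin that binds Plxnd1 directly, had 27.2, 27.5, 33.6, 33.7 and 33.7 CPM with c-MSST, and from 29.3 through 40.1 to 68.6 CPM in Control. Control replicates 2 and 3 were the highest, at 68.6 and 60.0 CPM. Replicate 7 was the lowest and the only Control library within the c-MSST range. The fold on the log2 scale was -0.53 (SE 0.16, adjusted p = 0.128), and -0.23 without Control replicates 2 and 3 (adjusted p = 0.315). Without Control replicate 7 it was -0.63 (adjusted p = 0.0357), where 1.92% of all genes tested passed.

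Ntn5 had 1.35, 1.55, 2.11, 2.46 and 2.63 CPM with c-MSST, which touched the lowest Control values given above. The log2 fold change was -1.34 (SE 0.35, adjusted p = 0.0832) and -0.85 without Control replicates 2 and 3 (adjusted p = 0.218). With the striatal score in the fit it was -1.16 (adjusted p = 0.0863). In the same fit Sema6b had 0.18, Sema4f 0.24, Sema4a 0.34 and Sema3e -0.51 (adjusted p = 0.0756, 0.0645, 0.0835 and 0.117). This comparison and that of SCZ share the Control libraries, so the like fold changes of Ntn5 in both are not separate observations.

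SCZ+c-MSST against SCZ addresses what c-MSST does after MK-801. No guidance gene passed, 0% of all genes tested did, and 3 guidance genes (4.76%) had an unadjusted p under 0.05, against 7.56% of all genes. DESeq2 and limma on log2(FPKM + 0.1) also called none of the 63, where they called 0.378% and 0.0134% of all genes tested. Epha2, an Eph receptor better known from epithelia and vessels, had 2.94, 3.21, 3.69 and 3.83 CPM with c-MSST. In SCZ it had 1.59, 1.71, 2.42 and 2.49 CPM. The groups did not overlap, at levels just above the minimum of 1 CPM. Its log2 fold change was 0.77 (SE 0.26, adjusted p = 0.485).

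Plxna2 had 395.5, 421.1, 423.3 and 428.3 CPM with c-MSST and 374.6, 380.8, 387.3 and 388.4 CPM in SCZ. The groups did not overlap, and the log2 fold change was 0.16 (SE 0.06, adjusted p = 0.529). For the ephrins Efna1 and Efnb3 the values lay the other way. Efna1 had 1.72, 1.84, 2.19 and 2.68 CPM with c-MSST against 2.702, 2.88, 3.57 and 3.66 CPM in SCZ (log2 fold change -0.57, SE 0.28, adjusted p = 0.672). Efnb3 had 73.4, 83.1, 88.3 and 89.2 CPM against 93.0, 108.3, 111.8 and 130.8 CPM (log2 fold change -0.37, SE 0.18, adjusted p = 0.672). Neither pair of groups overlapped in CPM, though the nearest Efna1 values were 2.68 and 2.702 CPM. In FPKM the groups overlapped for Efnb3, with SCZ+c-MSST replicate 3 at 9.76 and SCZ replicate 1 at 9.64. For Epha10 the log2 fold change was 0.18 (SE 0.09, adjusted p = 0.653). With the striatal score in the fit it was 0.17, with 0.76 for Epha2, 0.17 for Plxna2, -0.61 for Efna1 and -0.38 for Efnb3. The adjusted p values of that fit ran from 0.342 for Plxna2 to 0.624 for Efnb3.

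SCZ+c-MSST against Control+c-MSST addresses MK-801 in the presence of c-MSST. Again no guidance gene passed and 0% of all genes tested did, with 8 guidance genes (12.7%) and 11% of all genes at an unadjusted p under 0.05. DESeq2 called none of the 63 and 0.454% of all genes tested, and limma on log2(FPKM + 0.1) none and 0%. Ntn1 had 17.2, 22.9, 23.6 and 31.3 CPM in SCZ+c-MSST and 11.6, 13.6, 15.5, 17.6 and 24.1 CPM in Control+c-MSST. The MK-801 libraries were mostly the higher, with an overlap, as in the comparison without c-MSST. The fold on the log2 scale was 0.51 (SE 0.21, adjusted p = 0.396), and 0.24 with the striatal score in the fit (adjusted p = 0.846). These libraries are other ones than those of SCZ and Control, but the labels do not tie each library to its own mouse.

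Epha10 had 57.5, 65.3, 69.7 and 74.7 CPM in SCZ+c-MSST and 67.8, 74.5, 79.9, 81.0 and 84.2 CPM in Control+c-MSST. The groups overlapped, with a difference in log2 level of -0.23 (SE 0.08, adjusted p = 0.353) beside the -0.24 found without c-MSST. With the striatal score in the fit it was -0.15 (adjusted p = 0.821). For Epha8 the fold was 0.14 (SE 0.13, adjusted p = 0.757). The semaphorins Sema4f and Sema4d, of which Sema4d binds Plxnb1, gave log2 fold changes of -0.21 (SE 0.08, adjusted p = 0.368) and -0.41 (SE 0.16, adjusted p = 0.387). With the striatal score in the fit they were -0.13 and -0.40 (adjusted p = 0.821 and 0.796). Epha2 had 1.74, 1.86, 2.09, 2.51 and 2.74 CPM in Control+c-MSST, all below SCZ+c-MSST, with a difference in log2 level of 0.63 (SE 0.25, adjusted p = 0.387). With the striatal score in the fit it was 0.72 (adjusted p = 0.757).

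The interaction, which is the log2 fold change with c-MSST after MK-801 minus that after saline, had no guidance gene at an adjusted p under 0.05, as 0% of all genes tested did. At an unadjusted p under 0.05 there were 5 (7.94%), against 7.29% of all genes. DESeq2 called none of the 63 and 0.244% of all genes tested, and limma none and 0%. The 5 were Ntn5 at 1.80 (SE 0.53, adjusted p = 0.461), Epha2 at 1.01 (SE 0.34, adjusted p = 0.557), Epha4 at 0.35 (SE 0.15, adjusted p = 0.641), Sema3e at 0.58 (SE 0.25, adjusted p = 0.651) and Sema4d at -0.48 (SE 0.22, adjusted p = 0.676). Without Control replicates 2 and 3 the values were 1.32 for Ntn5, 0.78 for Epha2, 0.25 for Epha4, 0.27 for Sema3e and -0.60 for Sema4d. With the striatal score in the fit they were, in the same order, 1.58, 0.97, 0.33, 0.54 and -0.48. For none of the 63 did the response to c-MSST differ detectably between saline and MK-801 mice.

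**Figure D3:**
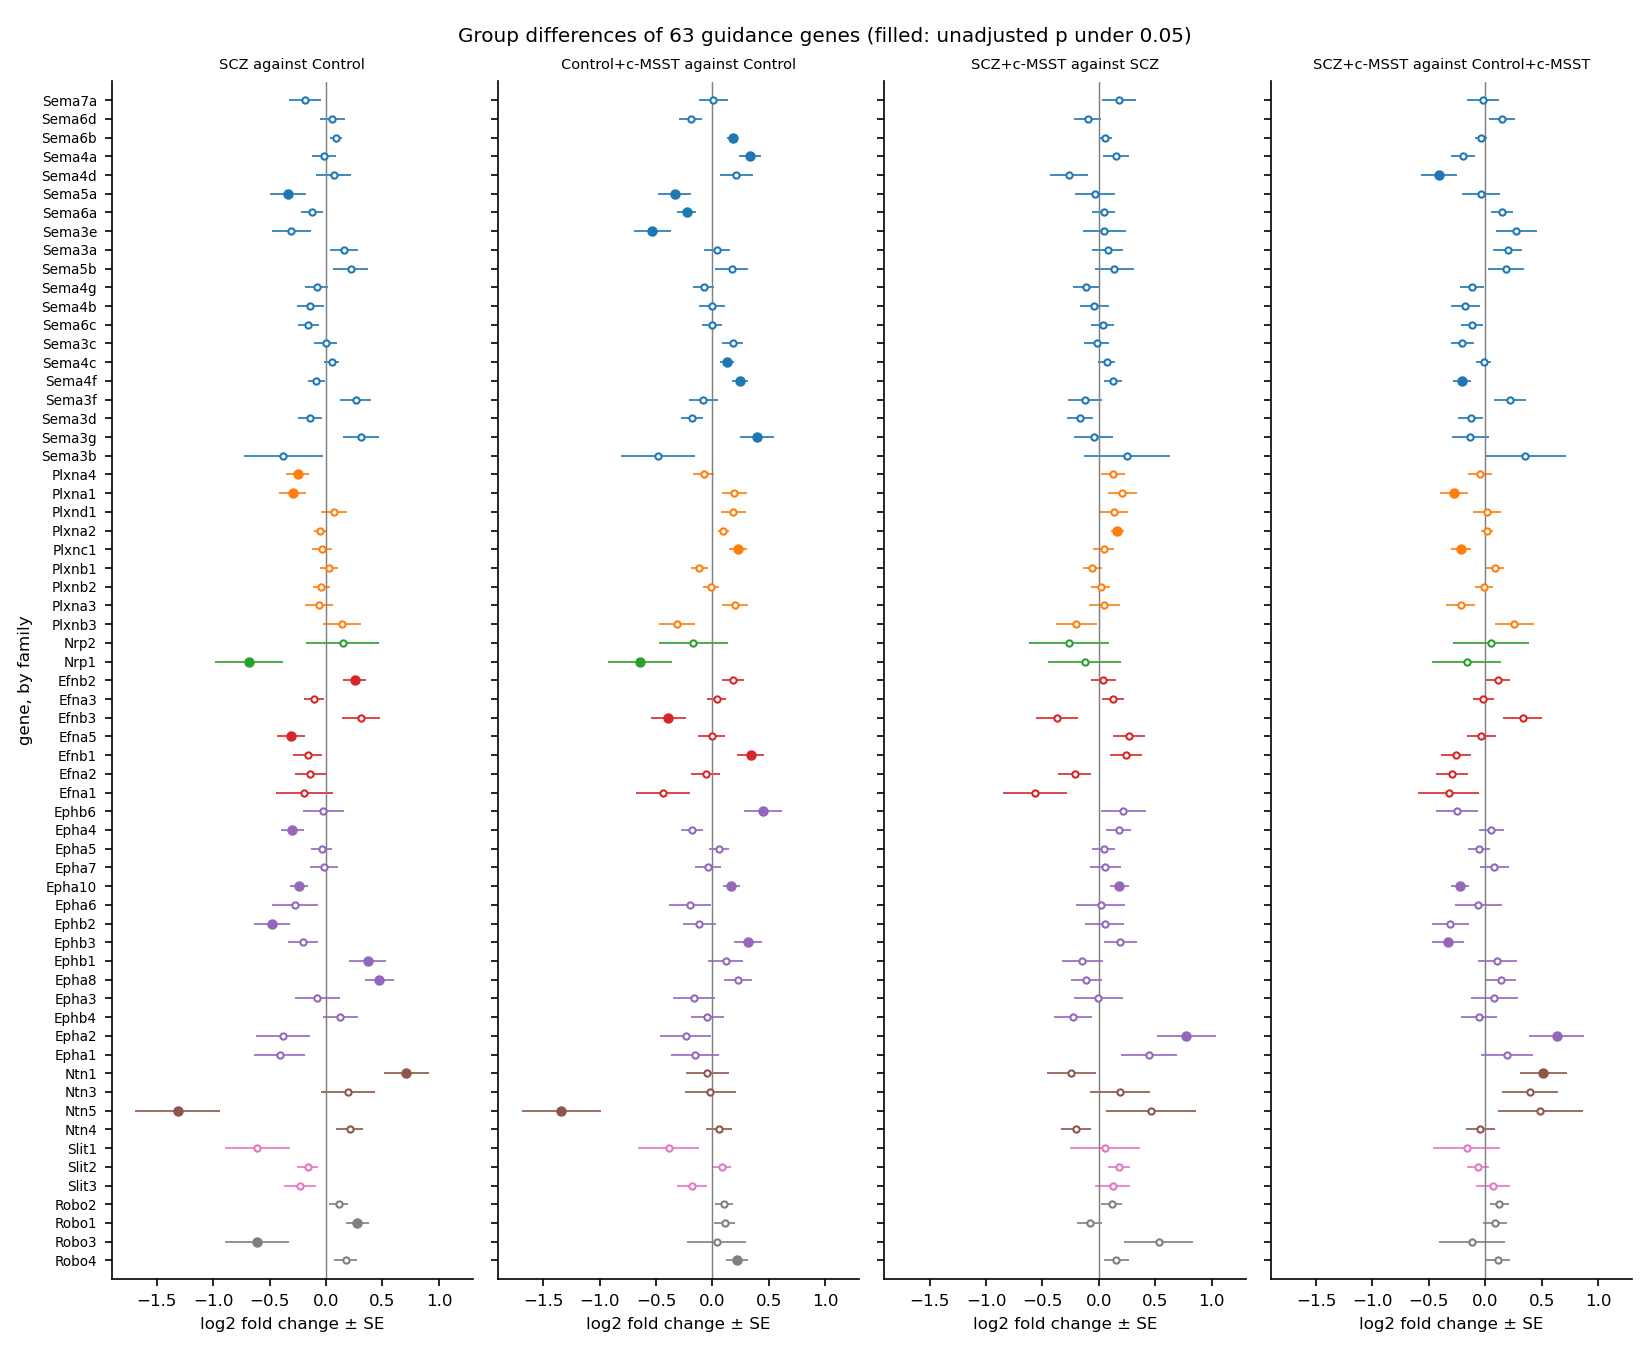
Log2 fold change (horizontal axis, with its SE) of the 63 guidance genes in 4 comparisons of 2 groups, coloured by family; filled points have an unadjusted p under 0.05. No gene passed the adjusted threshold; Ntn5 lies farthest from 0, at -1.31 and -1.34 in the comparisons with Control.

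The levels of markers of neighbouring tissue differed between libraries, so each gene was also fitted against marker scores, with the group held in the model. A score is the mean log2 level of a marker list, and a slope is the log2 change of a gene for each doubling of the markers within groups. Of the 63 guidance genes, 12 (19.05%) had a slope on the striatal score at an adjusted p under 0.05, against 5.29% of all genes tested. Levels fell with rising striatal markers for 8 (2.33% of all genes tested did) and rose for 4 (2.96% of all). The receptors among those that fell were Plxna1, Plxna3 and Plxna4, which are class A plexins, Ephb2 and Nrp1; the ligands were Slit1, Sema4g and Efna3. Those that rose were the ligands Ntn1, Sema5b and Sema3a and the receptor Robo2.

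Plxna1, a plexin of the receptor for class 3 and class 6 semaphorins, had the smallest p. It had 312.6, 290.1 and 283.1 CPM in Control+c-MSST replicates 6, 4 and 7, where the striatal score was -2.12, -0.79 and -1.59. In Control+c-MSST replicates 1 and 2, with scores of 0.76 and 0.37, it had 202.8 and 235.8 CPM. The 4 SCZ libraries, with scores of 0.91 to 1.24, lay between 187.7 and 213.0 CPM. Within groups the libraries with fewer striatal markers were mostly the higher ones, though not in strict order. In SCZ+c-MSST, replicate 5 had 232.5 CPM at a score of 0.27 and replicate 2 had 242.8 CPM at 0.64. The slope was -0.15 (SE 0.02, adjusted p = 0.000392), and -0.18 without Control replicates 2 and 3 (adjusted p = 0.000431).

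Ephb2 had a slope of -0.19 (SE 0.03, adjusted p = 0.00162), and Plxna3, another class A plexin, one of -0.15 (SE 0.03, adjusted p = 0.00263). Ephb2 was 41.9, 42.3 and 44.2 CPM in Control+c-MSST replicates 4, 6 and 7 and 30.7 and 31.5 CPM in replicates 1 and 2. Plxna3 was 45.3, 58.5 and 50.3 CPM in Control+c-MSST replicates 4, 6 and 7 and 40.9 and 43.2 CPM in replicates 1 and 2. In SCZ it had 32.8 CPM in replicate 1 and 46.1 CPM in replicate 5, at near scores of 1.24 and 1.10. Both slopes stayed past the threshold without Control replicates 2 and 3, at -0.18 (adjusted p = 0.0260) and -0.14 (adjusted p = 0.0458). The 250 bases before the start of each gene are shown for these receptors, whose levels both fell as striatal markers rose. Capitals mark the GC box GGGCGG, known as a site of Sp1 and related factors, in either orientation, and the E-box CANNTG, bound by basic helix-loop-helix factors.
Ephb2 (chr4:136836013-136836262, minus strand): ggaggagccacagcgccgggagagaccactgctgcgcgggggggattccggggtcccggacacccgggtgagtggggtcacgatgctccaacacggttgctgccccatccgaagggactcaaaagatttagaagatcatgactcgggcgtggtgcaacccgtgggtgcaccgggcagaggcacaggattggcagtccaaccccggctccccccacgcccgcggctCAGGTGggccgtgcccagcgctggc
Plxna3 (chrX:74328816-74329065, plus strand): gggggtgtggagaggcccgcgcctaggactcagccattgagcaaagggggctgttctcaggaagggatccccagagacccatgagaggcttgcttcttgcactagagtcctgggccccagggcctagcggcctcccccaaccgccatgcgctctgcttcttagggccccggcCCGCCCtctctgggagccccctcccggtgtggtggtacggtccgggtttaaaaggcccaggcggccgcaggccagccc
These sequences are from RefSeq on GRCm38.p6, read 5′ to 3′ along the gene. Ephb2 held 1 CANNTG match and Plxna3 1 match to GGGCGG, and neither held TATAAA. Promoter sequences were matched for 55 of the 63 genes, with 71 start sites. GGGCGG was in 71.8% of these, against 32.7% of all 32851 promoter windows of the same length, CANNTG in 50.7% against 66.2%, and TATAAA in 2.82% against 12.4%. GC content had a median of 64.4% in the guidance windows and 52.4% in all. A match is only a stretch of letters here, and base composition by itself changes how often such letters occur.

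Slit1 had the steepest slope, -0.33 (SE 0.06, adjusted p = 0.00314), but 2 libraries carried much of it. It was 289.4 and 239.7 CPM in Control replicates 2 and 3, against 83.4 to 128.2 CPM in the other 17. Without both, the slope was -0.12 (adjusted p = 0.0629). Among the genes that rose, Ntn1 had a slope of 0.21 (SE 0.05, adjusted p = 0.0209), Sema5b one of 0.17 (SE 0.04, adjusted p = 0.0183), Sema3a one of 0.13 (SE 0.03, adjusted p = 0.0344) and Robo2, which binds Slits, one of 0.09 (SE 0.02, adjusted p = 0.0203). Without Control replicates 2 and 3 none of these 4 passed: the slope of Sema3a was 0.06 (adjusted p = 0.344), while those of Ntn1, Sema5b and Robo2 were 0.26, 0.13 and 0.10 (adjusted p = 0.0537, 0.0708 and 0.0771). Sema3a was called in 13 of the 19 fits that left out 1 library.

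Of the 12 genes, 6 (Efna3, Ephb2, Plxna1, Plxna3, Plxna4 and Slit1) were called in each of the 19 fits that left out 1 library. Without Control replicates 2 and 3, 8 guidance genes were called (4.34% of all genes tested), of which 4 were among the 12: Efna3, Ephb2, Plxna1 and Plxna3. With all 4 marker scores in 1 fit, 2 were called, Plxna3 and Slit1, and 0.682% of all genes tested. The striatal and septal scores had a Pearson r of 0.73 over the 19 libraries, which share depth and dissection, so slopes on them are not separate observations.

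**Figure D4:**
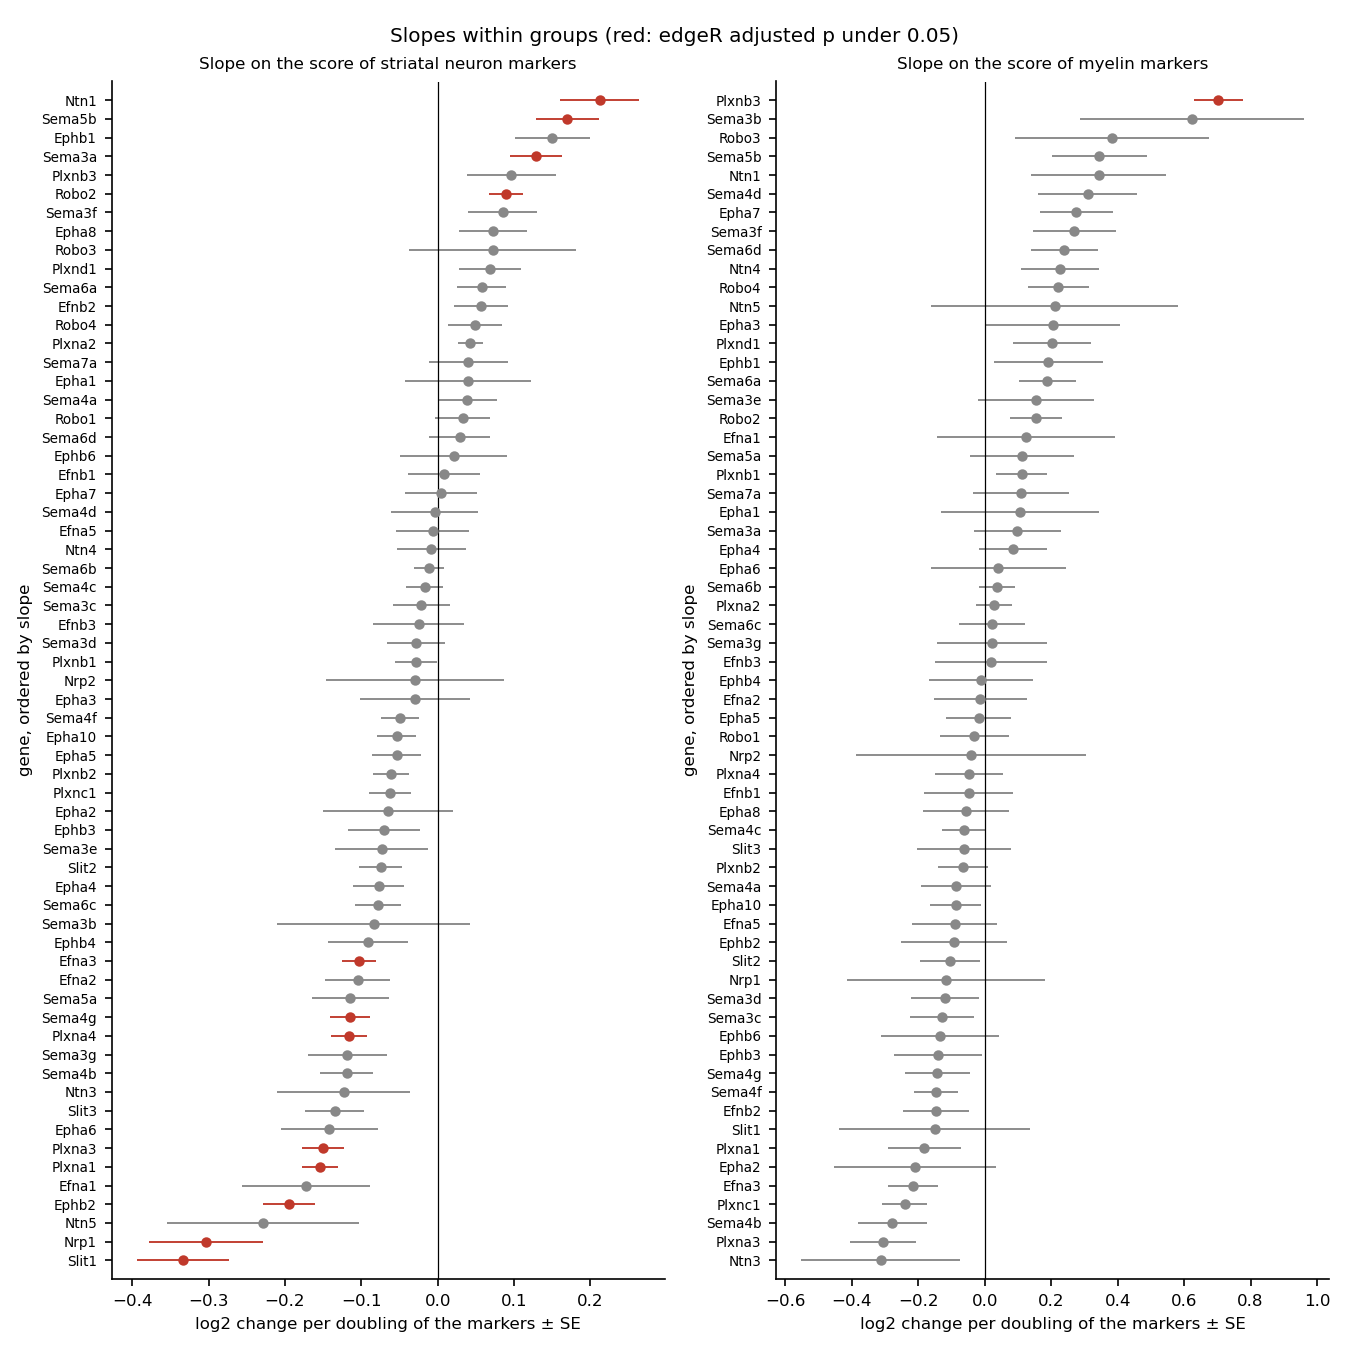
Slopes of the 63 guidance genes on the striatal score (left) and the myelin score (right), as log2 change per doubling of the markers with the SE; red points have an edgeR adjusted p under 0.05. On the striatal score 8 lie below 0 and 4 above, and on the myelin score Plxnb3 alone is red, at 0.70.

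Septal and basal forebrain markers took 1 guidance gene, Ntn1, with a slope of 0.40 (SE 0.08, adjusted p = 0.0270), where 0.78% of all genes tested were called. These markers summed to 53.4 to 143 CPM in Control, 53.8 to 59.4 CPM in Control+c-MSST, 57.5 to 136 CPM in SCZ and 51.1 to 67.5 CPM in SCZ+c-MSST, with Lhx8, Nkx2-1 and Gbx1 at 0 in some libraries. The sums did not follow the scores. Control replicate 2 had the highest sum, 143 CPM, at a score of -0.06. In Control+c-MSST the scores ran from -1.34 to 0.12 while the sums were nearly level. The Ntn1 values of SCZ replicates 1, 2, 3 and 5 (22.5, 28.7, 30.6 and 33.7 CPM) stood in the same order as their septal scores (0.19, 1.06, 1.18 and 1.46). In Control, Control+c-MSST and SCZ+c-MSST this order did not hold. Control replicate 4 had 24.3 CPM at a score of 0.93, and replicate 5 had 19.4 CPM at 1.00. Control+c-MSST replicate 4 had 15.5 CPM at -1.34, and replicate 6 had 11.6 CPM at -1.22. SCZ+c-MSST replicate 5 had 22.9 CPM at -0.18, and replicate 3 had 17.2 CPM at 0.04. The slope was 0.39 without Control replicates 2 and 3 (adjusted p = 0.0251), where 5 guidance genes and 3.78% of all genes tested were called. The call of Ntn1 was lost without Control replicate 4 (0.38, adjusted p = 0.158), Control replicate 7 (0.42, adjusted p = 0.0546) or Control+c-MSST replicate 1 (0.35, adjusted p = 0.107). With all 4 scores in 1 fit it was 0.30 (adjusted p = 0.606). The mean septal score was 0.97 in SCZ and -0.03 in Control, and 0.01 in SCZ+c-MSST and -0.75 in Control+c-MSST.

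On the myelin score, Plxnb3 was the only guidance gene called, where 0.682% of all genes tested were. Plxnb3 is a plexin known from oligodendrocytes and binds Sema5a. It had 27.9, 28.6, 29.03 and 31.1 CPM in 4 Control+c-MSST libraries and 13.6 CPM in replicate 6, the library with the lowest summed myelin markers (974 CPM, against 2226 to 4415 CPM elsewhere). The slope was 0.70 (SE 0.07, adjusted p = 1.31e-05), and 0.58 without that library (adjusted p = 0.0797). Its upstream 250 bases are shown because no other guidance gene passed the test on the myelin score, with capitals as above.
Plxnb3 (chrX:73756853-73757102, plus strand): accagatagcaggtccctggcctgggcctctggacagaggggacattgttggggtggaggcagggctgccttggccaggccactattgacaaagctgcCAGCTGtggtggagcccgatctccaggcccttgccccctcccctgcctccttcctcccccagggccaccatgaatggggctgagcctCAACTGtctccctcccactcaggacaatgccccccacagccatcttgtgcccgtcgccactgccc
This window, also from RefSeq on GRCm38.p6, ends inside the gene by the GENCODE positions given below, which start upstream of the RefSeq start. It held 2 CANNTG matches and no GGGCGG or TATAAA, with 3 CpG dinucleotides, against 20 in the Ephb2 window, 12 in that of Plxna3 and a median of 15 over the guidance windows.

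Choroid plexus markers gave 11 guidance genes (17.5%), against 3% of all genes tested (1.64% higher and 1.35% lower). Sema3e, Epha6, Sema5a, Nrp1, Plxnb1, Slit1, Sema3b, Plxna4 and Slit3 rose with the score, and Sema4a and Sema3a fell. The slopes were 0.18 for Sema3e (SE 0.03, adjusted p = 0.000877), 0.20 for the receptor Epha6 (SE 0.03, adjusted p = 0.000903) and 0.28 for Nrp1 (SE 0.05, adjusted p = 0.00803). No call held without Control replicate 2, where none of the 63 and 1 of all genes tested passed. Nor did any hold without replicates 2 and 3, where none of the 63 and 0% of all genes tested passed. The slopes themselves moved unequally. That of Sema3e was as large without replicate 2 (0.25, SE 0.05, adjusted p = 0.0701) and without both (0.19, SE 0.06, adjusted p = 0.588). That of Nrp1 was 0.33 without replicate 2 (adjusted p = 0.209) and -0.05 without both. For Epha6 it was 0.18 without replicate 2 (adjusted p = 0.231) and 0.02 without both (adjusted p = 0.963), and without both Sema5a and Sema3a had slopes of the opposite sign (-0.05 and 0.04). In these libraries Sema5a was 187.4 and 108.5 CPM, against 79.5 to 96.7 CPM in the other 17, and Epha4 was 545.8 CPM in replicate 2. The part of choroid plexus tissue in these values was not tested.

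**Figure D5:**
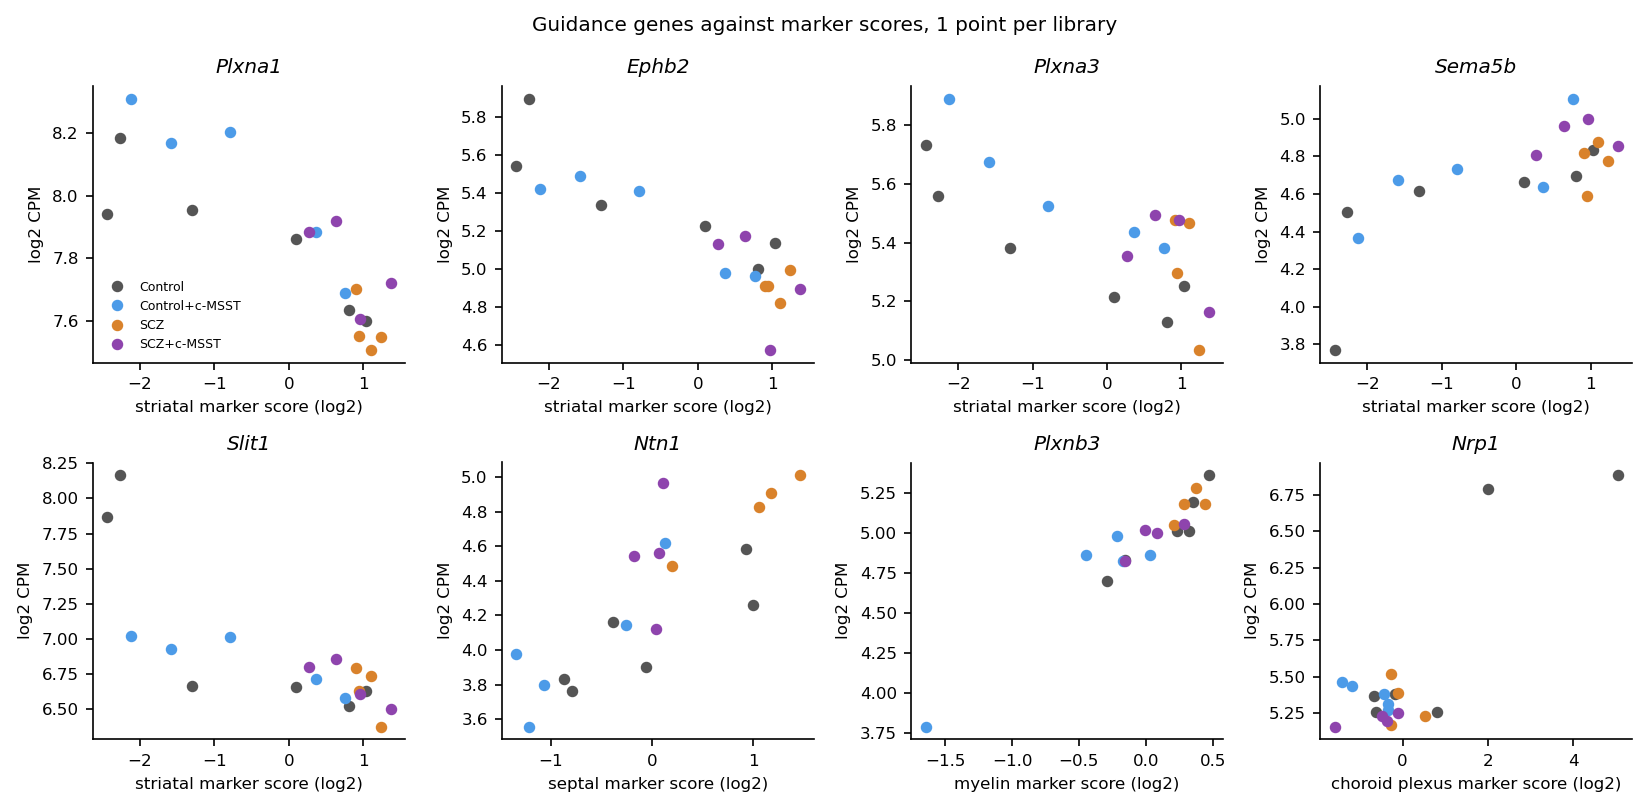
Log2 CPM of 7 guidance genes and of Nrp1 against a marker score (log2 scale, centred on the mean of the 19 libraries), 1 point per library, coloured by group. Plxna1, Ephb2 and Plxna3 lie lower where the striatal score is higher, Plxnb3 is lowest in the library with the lowest myelin score, and Nrp1 is high only in the Control libraries with high choroid plexus scores.

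The wider pathway was followed through 51 other genes, namely netrin receptors and guidance partners, collapsin response mediator proteins, kinases, and adaptors and actin effectors. None passed edgeR's test in any group comparison. An unadjusted p under 0.05 was found for 8 of them (15.7%, against 13.5% of all genes tested) in the comparison of SCZ with Control and 9 (17.6%, against 16.6%) in that of Control+c-MSST with Control. The smallest p values in SCZ against Control were those of Dscam, a netrin receptor (log2 fold change -0.30, SE 0.07, adjusted p = 0.148), and Mical2, an actin-oxidising enzyme (-0.47, SE 0.11, adjusted p = 0.148). On the striatal score 8 of the 51 (15.7%) passed, 7 lower and 1 higher, against 5.29% of all genes tested (2.33% lower and 2.96% higher). The smallest p was that of Unc5a, a receptor of Ntn1, with a slope of -0.11 (SE 0.01, adjusted p = 7.68e-05). Dpysl4 and Crmp1, cytosolic mediators of semaphorin signalling, had -0.08 (SE 0.01, adjusted p = 0.00312) and -0.07 (SE 0.01, adjusted p = 0.00566). Of the 12 kinases none passed. Septal markers took Dscam, with a slope of -0.14 (SE 0.03, adjusted p = 0.0433), choroid plexus markers none of the 51, and myelin markers Cntn2, a cell adhesion protein of the myelinated axon, with a slope of 0.31 (SE 0.06, adjusted p = 0.0275).

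By GENCODE vM21 on GRCm38 the genes the results turn on lie at chr11:68209364-68400823 (Ntn1, minus strand), chr7:45684022-45694556 (Ntn5, plus), chr4:136929419-136956816 (Epha8, minus), chr4:136647539-136835988 (Ephb2, minus), chr6:89316314-89362620 (Plxna1, minus), chrX:74329066-74344689 (Plxna3, plus) and chrX:73757090-73772514 (Plxnb3, plus). Of the 63 genes, 5 overlap another protein-coding gene (Epha1, Ephb1, Ephb4, Ntn3 and Ntn5), and their counts are uncertain because the sources used here do not state how strand entered the counting.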

How the data were processed

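RNA-seq of 19 libraries was used. Per the labels' protocols, total RNA was extracted with TRIzol and libraries were made with a stranded total RNA kit. The submitters' processing notes name StringTie 1.3.5, Picard 2.18.29, STAR 2.7.7a, fastp 0.19.5 and the mouse build mm10. Their roles, the annotation and the strand setting are not given in the sources used here. As deposited by the authors there was 1 table of whole-number values per gene, treated as estimated counts, and 1 of FPKM values, which the authors scaled to gene length and depth. CPM is the count over the library total, without further scaling.

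Tests used edgeR 4.0.16 in R 4.3.3: filterByExpr (16417 genes kept), TMM, 1 coefficient per group over all 19 libraries, glmQLFit (robust) and glmQLFTest, with Benjamini-Hochberg adjustment over all genes tested and a threshold of 0.05; the 10 tests were 5 contrasts, 1 across the groups and 4 slopes. SE is the absolute log2 fold change over the root of F. Scores average log2 CPM (prior count 2, TMM) of listed markers with a mean of at least 1 CPM, centred on the libraries' mean. The fits were tested on simulated data. Alternatives used DESeq2 1.42.0 and limma 3.58.1 (voom, and log2(FPKM + 0.1) and log2(FPKM + 1), where a fold understates low genes). The genes and lists were chosen with earlier results of these data known. Named with tests were genes past the threshold, or the 5 with the smallest p in a group comparison, and up to 4 per direction of a slope; the fold of Epha8 with c-MSST, the levels of Nrp1, Sema5a and Epha4 and the order of Ntn1 with the septal score were added after their values were seen. An exact count of 0 allows up to 3 counts, for counting error only. 1 list of pathway genes is not reported here.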

Additional observations from a re-analysis of the deposited data

Results flagged for a closer look

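Among the 25 guidance genes with a named test, 100 sets of libraries (25 genes in 4 groups) were searched for 1 library far from the rest of its group, and 6 were found; chance alone gives about 1 in 20. Epha2 had 4.885 CPM in Control replicate 3, against 1.79 to 2.513 CPM in the other Control libraries. Epha4 had 545.8 CPM in Control replicate 2 (the others 344.8 to 403.5 CPM) and 310.5 CPM in Control+c-MSST replicate 1 (the others 358.3 to 372.3 CPM). Sema5a had 187.4 CPM in Control replicate 2, against 79.79 to 108.5 CPM. Plxna1 had 213 CPM in SCZ replicate 3, against 187.7 to 190.1 CPM. Plxnb3 had 13.63 CPM in Control+c-MSST replicate 6, against 27.88 to 31.05 CPM.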

How the results depend on the processing

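Counts of guidance genes called depended on the tool and on single libraries. The share of all genes tested follows each in brackets, and for fits that left out 1 library the counts over all genes follow. DESeq2 called 3 in SCZ against Control (1.84%), 5 in Control+c-MSST against Control (3.46%), 10 across the groups (8.66%) and 3 on the septal score (2.92%). limma on FPKM called 2 in Control+c-MSST against Control (2.33% and 2.35%) and 6 on the striatal score (3.09%) with either pseudocount, and voom called 2 on the septal score (1.52%). Without Control replicates 2 and 3, 5 were called on the septal (3.78%) and 0 on the choroid plexus score (0%), where the slopes of Sema5a, Nrp1 and Sema3a reversed to -0.0495, -0.0496 and 0.0368. With no group term, 21 were called on the striatal (10.5%), 10 on the septal (11%) and 5 on the myelin score (5.46%); with all 4 scores together, 2 on the striatal (0.682%), 0 on the septal (0.0244%) and 1 on the choroid plexus score (0.152%). The cause of these differences was not tested. Leaving out 1 library at a time gave 0 to 3 in Control+c-MSST against Control, 0 to 2 across the groups, 8 to 15 on the striatal, 0 to 2 on the septal, 0 to 12 on the choroid plexus and 0 to 1 on the myelin score, and 0 to 0 in the other group comparisons. Over all genes, of which these fits tested 16382 to 16545, 0 to 94 were called in SCZ against Control (94 without Control replicate 4). In Control+c-MSST against Control 0 to 314 were called (0 without Control+c-MSST replicate 6, 314 without Control replicate 7). Across the groups it was 1 to 167. On the scores it was 556 to 1039 (striatal), 7 to 287 (septal), 1 to 572 (choroid plexus) and 44 to 138 (myelin). The interaction had 0 to 1, SCZ+c-MSST against SCZ 0 to 2 and SCZ+c-MSST against Control+c-MSST 0 to 1. Of 1446 recomputed values for 46 named results, 1346 kept their direction and side of the threshold, 22 passed it newly, 75 lost it and 3 reversed.

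The groups share replicate numbers, but same-numbered libraries did not deviate together (correlations -0.10 to 0.14 over 19 pairs), and 2 of 18 libraries correlated best with their own number. With the number as a replicate block, 7 guidance genes were called on the striatal score (3.15%) and 0 on the septal (0.0609%), choroid plexus (0.116%) and myelin (0.0914%) scores; no group comparison gained a call.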
